A study of Mus musculus with 30 samples.

Results

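The copies described here carry the names of mouse gammaretroviral elements and make up 1842 of the 319797 single repeat copies in the deposited nascent RNA table. They were chosen by name alone, as copies of superfamily ERV1 whose repeat name begins with RLTR6, RLTR1B, RLTR4_ or MuRRS. The rule gave 10 subfamilies. The internal parts were RLTR1B-int (368 copies), RLTR6-int (303 copies), MuRRS4-int (181 copies), RLTR4_MM-int (133 copies) and MuRRS-int (113 copies). The long terminal repeats (LTRs) were RLTR1B (331 copies), RLTR6B_Mm (162 copies), RLTR4_Mm (115 copies), RLTR6_Mm (115 copies) and RLTR6C_Mm (21 copies). VL30 and MuLV serve only as a working label for the set. The table's own MMVL30-int (215 copies) and MuLV-int (50 copies) fall outside the rule, and RLTR1B-int, whose name refers to neither element, held 66.5% of the members' summed signal at 48 h and 72.4% at 0 h.

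Murine leukaemia viruses (MuLV) are gammaretroviruses with infectious and endogenous forms, and VL30 elements are mouse retrotransposons that code for no intact viral protein but can be packaged into MuLV particles. A provirus consists of an internal part between LTRs, and its LTRs hold the promoter and the polyadenylation signal. Reverse transcription starts from a transfer RNA bound to a primer binding site directly after the upstream LTR. In mouse embryonic stem cells such proviruses are silenced by KRAB zinc finger proteins that recruit TRIM28 and the histone H3K9 methyltransferase SETDB1, and ZFP809 is the known zinc finger protein for the proline-type primer binding site.

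Newly made RNA was measured by TT-seq in embryonic stem cells of the line dTKO, grown with LIF and serum on gelatin, whose label reads Suv39h1fl/fl; Suv39h2-/-; Setdb1fl/fl. In all groups the treatment was auxin (100 µg/ml) together with dTAG13 (0.5 µM), compounds that induce breakdown of proteins carrying degron tags, and the groups differ in the time since addition: 0, 3, 12, 24 or 48 h. The question was how genes and repeats are transcribed once H3K9 methyltransferases are lost, with 0 h as the baseline, and the labels do not say which proteins carry the tags. Each time has 3 libraries, labelled as biological repeats of this 1 line, and since each had 2 sequencing runs the 30 GEO samples are 15 libraries, with n = 3 for every mean below. RNA was labelled for 10 minutes with 1 mM 4-thiouridine, and 110 µg of total RNA received 1 µg of yeast RNA as a spike-in. The p-values measure the spread between these libraries of the line. For subfamilies and genes, the fit took this spread mostly from all repeat names or genes of similar signal. Very small p-values there rest on that shared spread and not on the libraries of the subfamily or gene alone. In such bulk libraries, more cells transcribing a copy and more RNA per cell cannot be told apart.

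Values are scaled reads, that is the reads on a copy divided by the size factor of the library, and 1 read was worth 0.636 to 0.936 scaled reads. The libraries held 37.1 to 42.3 M reads (M, 1e6) over all units, and the members took 11911 to 42700 of them. All 12 listed stem cell markers were measured, and at 48 h 10 were called down and 2 up (median −0.71), with sums of 26000 to 27390 scaled reads at 48 h against 30720 to 34140 at 0 h. For scale, 58.4% of all 15261 tested genes were called down at 48 h and 7.65% up, with a median of −0.37. Among the markers Pou5f1 changed by −1.08, Esrrb by −0.99 and Fbxo15, the marker with the most signal, by 0.31. Markers of a 2-cell-like state also moved with time: 5 of the 5 tested were called higher at 48 h, with a summed level of 1482 to 1746 scaled reads at 48 h against 37.4 to 48.0 at 0 h. Of 6 tested fibroblast or feeder markers, 5 were called higher and 1, Thy1, lower (−2.23). Their sums were 390 to 545 scaled reads at 48 h against 285 to 359 at 0 h. Whether such other cells were present, and their part in the results below, was not tested. Copies of a subfamily can be near-identical in sequence, and how reads with several positions were placed is not stated here. Values of single copies are therefore uncertain and sums over a subfamily less so.

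The boundary between LTR and internal part is shown because it separates the RLTR4 from the RLTR6 proviruses. Each line gives 20 bases of LTR and 2 bases after it in lower case and the following 18 bases, where the primer binding site of a retrovirus lies, in capitals. The sequences are from RefSeq promoter windows (GRCm38.p6) that happen to overlap copies, and only copies with such a window could be shown.
RLTR4_MM-int_dup39, chr1:182257797-182257836, plus strand: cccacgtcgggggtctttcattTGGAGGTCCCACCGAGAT
RLTR4_MM-int_dup314, chr12:19243870-19243909, plus strand: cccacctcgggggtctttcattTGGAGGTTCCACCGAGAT
RLTR6-int_dup153, chr4:55418793-55418832, plus strand: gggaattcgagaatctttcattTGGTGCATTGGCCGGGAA
RLTR6-int_dup62, chr2:23014422-23014461, minus strand: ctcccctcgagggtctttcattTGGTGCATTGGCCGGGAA
The capital stretches of both RLTR6 copies were identical, those of the RLTR4 copies differed at 1 base, and RLTR4_MM-int_dup39 differed from RLTR6-int_dup153 at 9 of the 18 bases. Which transfer RNA these stretches match, and so whether any is of the proline type, was not tested. None of these copies was strongly transcribed: RLTR4_MM-int_dup39 averaged 9.63 scaled reads at 48 h and 7.23 at 0 h, and the others averaged under 2 scaled reads at both times.

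The LTR itself is shown for RLTR4 and RLTR6B, with the match to TATANAA, the form of a TATA box searched for on both strands, in capitals.
RLTR4_Mm_dup174, chr11:8920763-8920901, plus strand: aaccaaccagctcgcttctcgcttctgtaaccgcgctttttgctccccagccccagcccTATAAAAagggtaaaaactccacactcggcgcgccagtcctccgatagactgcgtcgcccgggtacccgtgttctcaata
RLTR6B_Mm_dup501, chr12:22467366-22467504, minus strand: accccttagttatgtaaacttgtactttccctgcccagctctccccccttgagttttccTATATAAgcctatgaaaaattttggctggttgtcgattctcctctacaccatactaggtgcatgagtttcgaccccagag
The stretches of 139 bases were cut around the match, so its presence in them is no result. For scale, 11.3% of all 32851 RefSeq promoter windows held at least 1 match on either strand. In 1 fixed stretch of 139 bases from each window the share was 5.9%. RLTR6B_Mm_dup501 averaged 2.72 scaled reads at 48 h and 1.41 at 0 h, and RLTR4_Mm_dup174 averaged 1.02 at 48 h and 0.857 at 0 h.

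Summed over their copies, all 10 subfamilies were called higher at 12, 24 and 48 h and none at 3 h. The members together averaged 10850 ± 740 scaled reads before treatment, 9848 ± 687 after 3 h, 21530 ± 3291 after 12 h, 28960 ± 4650 after 24 h and 31010 ± 1914 after 48 h (SD, n = 3). In the same fit 0 subfamilies were below an unadjusted p of 0.05 at 3 h, and edgeR also called 0 up. The subfamilies differed in size and in timing, and MuRRS4-int, through its copies on chromosome X, and RLTR6-int had the largest changes.

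MuRRS4-int summed to 2824, 3118 and 2937 scaled reads in the 48 h libraries, against 192, 196 and 172 in the 0 h libraries. All later libraries from 12 h on lay above all 0 h libraries, and the 3 h libraries, at 255, 170 and 199, overlapped them. The fitted change on the scale of log2(scaled reads + 1) was 0.14, 2.34, 3.53 and 3.98 at 3, 12, 24 and 48 h, with an SE of 0.13 at each time (limma adjusted p = 0.413 at 3 h and 1.55e-195 at 48 h).

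RLTR6-int, the internal part of the RLTR6 proviruses, summed to 1151, 1296 and 1200 scaled reads in the 48 h libraries, against 214, 240 and 227 in the 0 h libraries. The groups were far apart and each was tight. Its changes at the later times were −0.21, 0.96, 1.74 and 2.42 in order (SE 0.14 each, limma adjusted p = 1.18e-68 at 48 h).

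RLTR1B-int, the subfamily with the highest signal, summed to 19390, 22210 and 20300 scaled reads in the 48 h libraries, against 7736, 8519 and 7328 in the 0 h libraries. At 3 h its libraries, at 7322, 6483 and 7011, all lay below those at 0 h, but the change of −0.18 (SE 0.12) did not pass (limma adjusted p = 0.255). The changes at 12, 24 and 48 h were 0.97, 1.34 and 1.39 (SE 0.12 each), and RLTR1B-int carried most of the members' added signal.

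Among the other internal parts, RLTR4_MM-int averaged 1952 ± 47.2 scaled reads at 48 h and 645 ± 53.4 at 0 h (SD), a change of 1.60 (SE 0.13). MuRRS-int averaged 433 ± 51.0 scaled reads at 48 h and 127 ± 3.22 at 0 h (SD), a change of 1.75 (SE 0.15). Each of these was called, and in each the libraries at 48 h lay above all libraries at 0 h.

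The LTR subfamilies changed by 0.74 to 1.29. RLTR1B, the LTR with the most signal, averaged 2556 ± 91.2 scaled reads at 48 h and 1128 ± 65.7 at 0 h (SD), a change of 1.18 (SE 0.12). RLTR4_Mm averaged 725 ± 75.5 at 48 h and 432 ± 16.7 at 0 h (SD), a change of 0.74 (SE 0.13), the smallest of the 10. The RLTR6 LTRs were low throughout: RLTR6_Mm averaged 261 scaled reads at 48 h and 137 at 0 h (change 0.93, SE 0.15), RLTR6B_Mm 245 at 48 h and 99.4 at 0 h (change 1.28, SE 0.16) and RLTR6C_Mm 29.4 at 48 h and 11.4 at 0 h (change 1.29, SE 0.27). All 5 were called at 48 h, with limma adjusted p of at most 1.18e-05.

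The counts of subfamilies stand beside the same test over all 774 repeat names tested. At 3 h 0 of 10 subfamilies were called in either direction, against 1.55% of names called up and 1.94% called down. At 12 h 10 of 10 were called up, while 32.9% of names were called up and 0.388% down. The same held at 24 h, where 24.4% of names were called up and 1.03% down, and at 48 h, where 23.4% were called up and 4.91% down. The median change over all names was 0.01 at 48 h. Over all 15261 genes tested the median change was −0.24, 0.18, −0.08 and −0.37 at 3, 12, 24 and 48 h, and rescaling the libraries over genes moves every value by about these amounts. After that rescaling the changes at 48 h ran from 1.09 in RLTR4_Mm to 4.33 in MuRRS4-int, and MuRRS4-int (0.37), RLTR4_Mm (0.30) and RLTR1B (0.19) were then called up at 3 h.

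**Figure D1:**
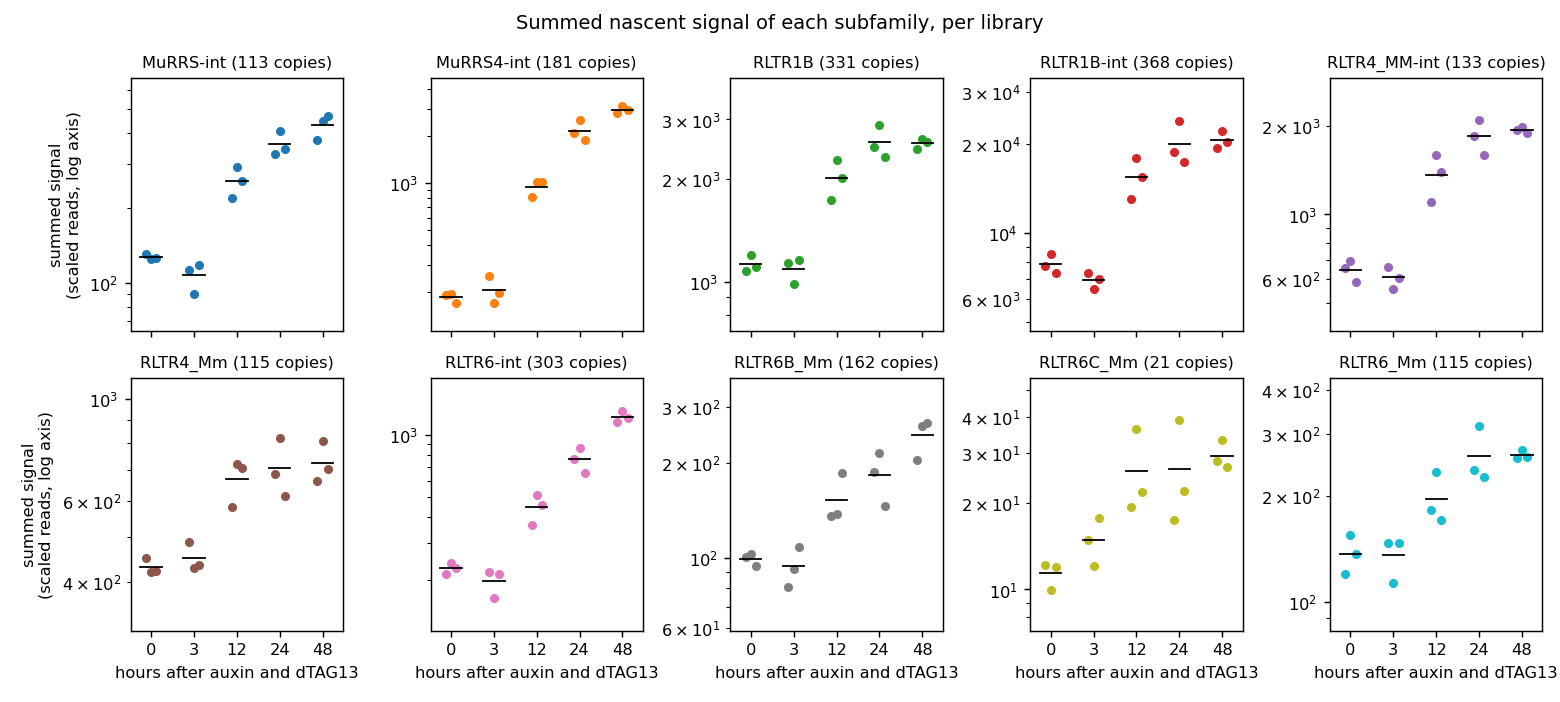
Summed scaled reads of each of the 10 subfamilies (log axis, with its own range in each panel) by hours after auxin and dTAG13. Points are libraries and bars are means of 3. From 12 h on every library lies above all 3 libraries at 0 h in every panel.

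**Figure D2:**
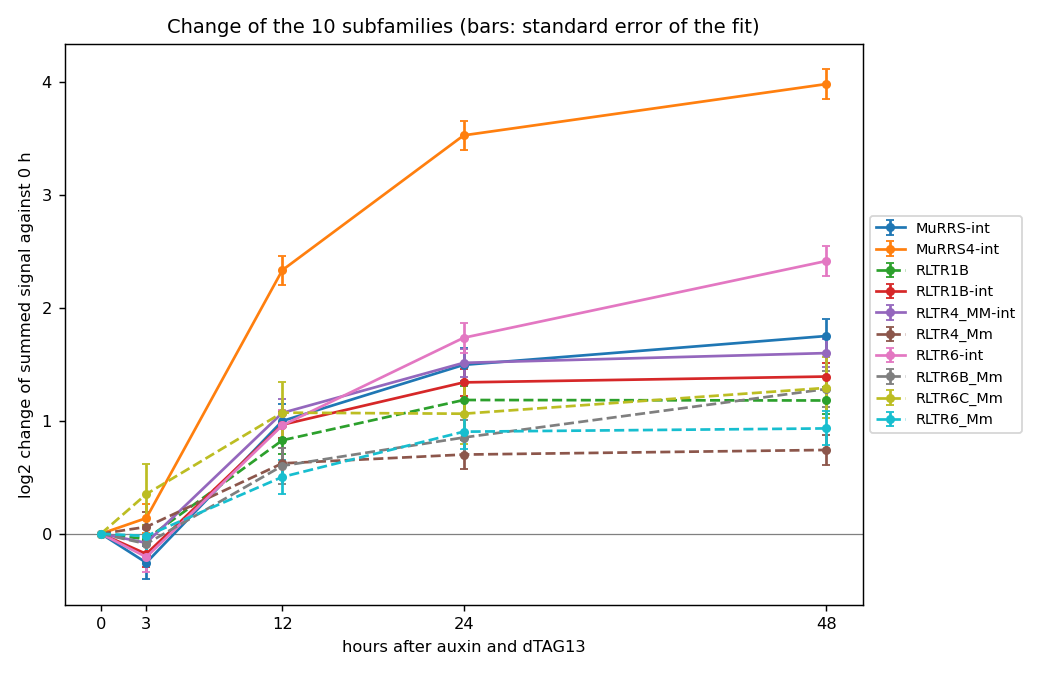
Fitted log2 change of the summed signal against 0 h by hours after auxin and dTAG13, with solid lines for internal parts, dashed lines for LTRs and bars for the SE of the fit. MuRRS4-int reaches 3.98 and RLTR6-int 2.42 at 48 h, while the other 8 subfamilies lie between 0.74 and 1.75.

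Between 24 and 48 h 2 of the 10 subfamilies were called. RLTR6-int summed to 1151, 1296 and 1200 scaled reads at 48 h, against 766, 866 and 655 at 24 h, and this rise of 0.68 (SE 0.14) passed (limma adjusted p = 2.36e-05). The rise of MuRRS4-int over the same interval was 0.45 (SE 0.13, limma adjusted p = 0.0132), a call that was lost when any of 4 libraries was left out (24 h replicate 1 or 3, 48 h replicate 2 or 3, with adjusted p of 0.0747 to 0.184). No call was made for the other 8 subfamilies, and 4.01% of all 774 names were called up and 0.388% down. After rescaling over genes 9 of the 10 subfamilies were called up over this interval.

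Within each library, subfamilies were also compared with RLTR1B-int, so that a shift of the whole library cancels. Relative to RLTR1B-int, MuRRS4-int rose at 48 h by a further 2.59 (SE 0.07), RLTR6-int by 1.02 (SE 0.08), MuRRS-int by 0.36 (SE 0.09) and RLTR4_MM-int by 0.21 (SE 0.06). RLTR1B, RLTR4_Mm and RLTR6_Mm fell behind it by −0.21, −0.65 and −0.46. The differences of RLTR6B_Mm (−0.11, SE 0.13, limma adjusted p = 0.395) and RLTR6C_Mm (−0.10, SE 0.25, adjusted p = 0.691) did not pass. In all, 4 member subfamilies were called above RLTR1B-int and 3 below, while over all 773 names 8.02% were called above and 87.2% below. Of those 4, RLTR6-int alone was called above it under each change of the copies summed, with 0.45 when every subfamily was summed without its highest copy at 48 h. MuRRS4-int turned to −0.58 (limma adjusted p = 7.79e-08) without the copies on chromosome X. Without the highest copies RLTR4_MM-int turned to −0.35 (adjusted p = 1.02e-05) and MuRRS-int to −0.22 (adjusted p = 0.0612). Without copies inside genes RLTR6B_Mm lay above RLTR1B-int by 0.58 (adjusted p = 0.000461), and the calls of MuRRS-int (0.14), RLTR1B (−0.09) and RLTR6_Mm (−0.24) were lost (adjusted p of 0.206, 0.165 and 0.052).

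In the fit, the RLTR4 and RLTR6 internal parts also rose more at 48 h than the LTR subfamilies with the matching name, as sums over all copies and not within single proviruses. The difference was 0.86 (SE 0.10) for RLTR4_MM-int over RLTR4_Mm, 1.48 (SE 0.11) for RLTR6-int over RLTR6_Mm and 1.13 (SE 0.18) for RLTR6-int over RLTR6B_Mm (limma adjusted p of at most 8.26e-10). The library ratios of RLTR6-int to RLTR6_Mm averaged 2.21 ± 0.05 at 48 h and 0.73 ± 0.10 at 0 h (log2, SD, n = 3). In a two-sided exact permutation test over 455 arrangements of the 12 later and 3 baseline libraries, with p-values adjusted over the 13 pairs compared, MuRRS4-int over RLTR1B-int (p = 0.0044, adjusted 0.0286), MuRRS4-int over MuRRS-int (p = 0.0022, adjusted 0.0286) and RLTR4_MM-int over RLTR1B-int (p = 0.011, adjusted 0.0476) passed. Without the copies on chromosome X the difference of MuRRS4-int over MuRRS-int at 48 h was −0.89, against 2.23 with them. RLTR6-int over RLTR1B-int (adjusted 0.302) and the internal parts over their LTRs (adjusted 0.216 each) did not pass in this exact permutation test, which pools 3 h with the later times. For 48 h alone, 3 libraries against 3 cannot go below p = 0.1 in an exact permutation test.

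Among single copies, 199 of the 1842 had a mean of at least 10 scaled reads over all libraries and were tested, 1643 had less, and of those 19 had no read in any library. At 3 h 5 copies were called up and 4 down, where 2.5% and 0.266% of all 13519 tested repeat copies were called up and down. At 12 h 105 were called up and 0 down (20.8% and 1.83% of all copies), with 0 copies down at an unadjusted p under 0.05 and 0 called down by edgeR on the recovered reads. At 24 h 114 were called up and 4 down (25.4% and 6.25%), and at 48 h 128 up and 8 down (26.0% and 12.3%). The median change of the tested members was 0.00, 1.51, 1.85 and 1.82 at 3, 12, 24 and 48 h, against −0.18, 0.32, 0.09 and −0.07 over all tested copies. With the 21 tested copies that had no read at 0 h set to their lower bound, the median at 48 h was again 1.82.

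A copy could pass the minimum through the later libraries alone, and many did. Of all 1842 copies, 245 averaged at least 10 scaled reads at 48 h and 102 at 0 h. Of the 245 copies, 153 averaged less than 10 at 0 h and 37 had no read there. When the minimum was applied at 0 h instead, 102 copies were tested. Of these 43 were called up and 7 down at 48 h, against 6.06% and 15.5% of the 11719 repeat copies that met it, and the members' median was 0.66. At 12 and 24 h 32 and 35 were called up, against 5.17% and 5.8%, and at 3 h 0 were called up and 1 down, against 0.87% and 0.128%.

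**Figure D3:**
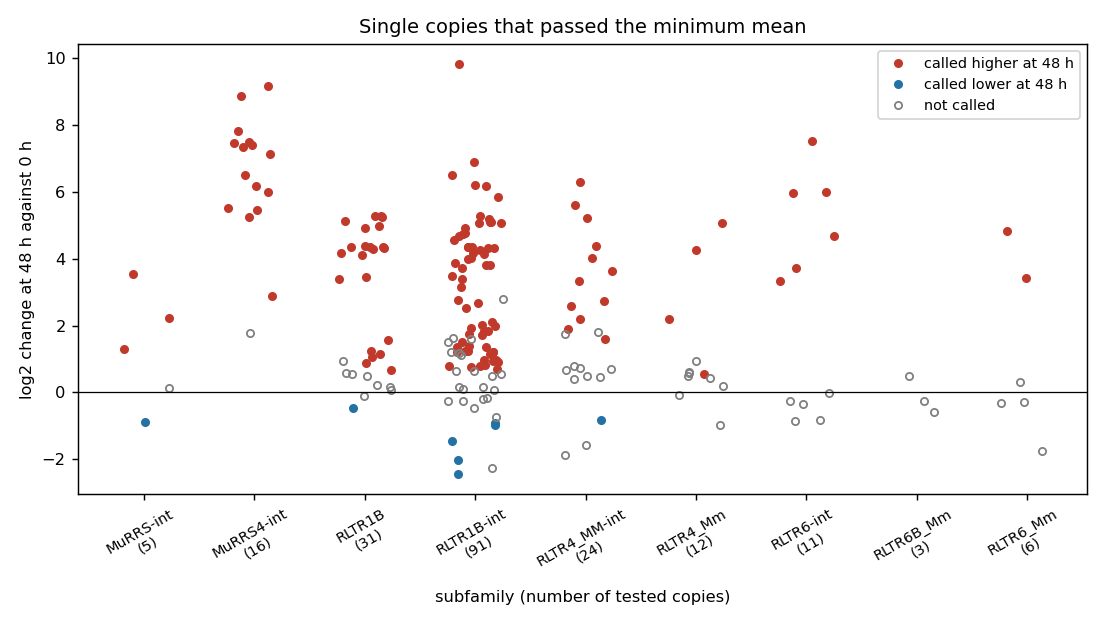
Fitted log2 change at 48 h against 0 h of the 199 tested copies, by subfamily with the number tested in brackets. Red points were called higher (128 copies), blue points lower (8 copies) and grey points not called. RLTR6C_Mm had no tested copy. The 14 MuRRS4-int copies on chromosome X lie at 5.25 or above, and their means at 0 h were at most 0.813 scaled reads.

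In MuRRS4-int most of the added signal was at a few places on chromosome X. Its 24 copies there summed to 2527, 2805 and 2619 scaled reads in the 48 h libraries, against 4.88, 3.33 and 0.857 in the 0 h libraries. The other 157 copies averaged 309 ± 10.99 scaled reads at 48 h and 183 ± 11.3 at 0 h (SD). Without the copies on chromosome X the change of MuRRS4-int was 0.75, against 3.98 with them. Of 16 tested copies 14 were on chromosome X, with changes from 5.25 to 9.19. Their means at 0 h were at most 0.813 scaled reads, so they met the minimum only through later libraries and their calls at 48 h are no support. With the minimum at 0 h 2 MuRRS4-int copies were tested, neither on chromosome X, and 0 were called. The 14 copies lie in 2 stretches, 4 copies within chrX:4098583-5310456 and 10 copies within chrX:31233999-34589941 (mm10), with a median length of 3428 bp.

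MuRRS4-int_dup675 (chrX:33502040-33505468, plus strand) had 606, 600 and 541 scaled reads in the 48 h libraries and no read in any 0 h library. Its level at 48 h was at least 699-fold higher against a floor of 3 reads over the 0 h group. It was late: at 12 h its libraries had 0.845, 8.19 and 36.9 scaled reads, and at 24 h they had 224, 251 and 188. MuRRS4-int_dup671 (chrX:33035779-33039207, minus strand) had 415, 513 and 492 scaled reads at 48 h and no read at 0 h, at least 567-fold higher. It was earlier, with 102, 107 and 93.0 scaled reads at 12 h. MuRRS4-int_dup677 (chrX:34262464-34265888, plus strand) also had no read at 0 h, and it averaged 78.9 ± 17.6 scaled reads at 12 h, then 176 ± 8.67 at 48 h (SD).

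All 3 copies lie outside annotated genes, with a Btbd35f or Spin2g gene 23731 to 69930 bp away. In 13 of the 16 tested MuRRS4-int copies the same chain of repeats (gaps of up to 1000 bp) also holds RLTR9E, an LTR of the ERVK superfamily. None of these 13 reached the minimum at 0 h. The copy with the most signal at 0 h, MuRRS4-int_dup180 on chromosome 3 (chr3:100309694-100309911), had 20.7, 28.7 and 21.4 scaled reads at 48 h, against 19.5, 16.6 and 0 at 0 h. Its change of 1.77 (SE 1.33) did not pass (limma adjusted p = 0.331).

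In RLTR6-int most of the added signal was in long copies. The 126 copies of at least 7 kb summed to 854, 946 and 876 scaled reads in the 48 h libraries, against 49.6, 57.4 and 43.7 in the 0 h libraries. The 177 shorter copies summed to 297, 350 and 324 scaled reads at 48 h, against 164, 182 and 184 at 0 h. Both sums were higher in every 48 h library. Per length the long copies had 0.926 scaled reads per kb at 48 h and 0.0521 at 0 h, and the shorter copies had 0.995 at 48 h and 0.543 at 0 h. Of the long copies 17 averaged at least 10 scaled reads at 48 h and 0 did at 0 h. The 6 tested long copies averaged at most 2.76 scaled reads at 0 h and met the minimum only through later libraries, while the 5 tested shorter copies averaged 11.2 to 20.8 at 0 h, so their calls at 48 h are not compared. With the minimum at 0 h those 5 were tested and 0 were called. The length limit was set after the values were seen, and a long copy has more positions for reads. In all 6 tested long copies RLTR6B_Mm, not RLTR6_Mm, is the LTR in the same chain. RLTR6B_Mm is also the more frequent of these LTRs over all 303 RLTR6-int copies. The chain of 78 copies holds RLTR6B_Mm without RLTR6_Mm, and that of 21 copies holds RLTR6_Mm without RLTR6B_Mm. A link between the LTR and the rise was not tested.

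RLTR6-int_dup395 had the highest signal of the subfamily at 48 h, with 273, 295 and 273 scaled reads, against 0, 0 and 2.57 at 0 h. The ratio of 336 rests on 3 reads at 0 h, with an exact 95% counting interval of 115 to 1633. It was at 0 in the 3 h libraries, and at 12 h its libraries had 8.45, 18.2 and 7.02 scaled reads. RLTR6-int_dup1207 (chr19:39962632-39970318, plus strand) averaged 64.3 ± 13.5 scaled reads at 48 h with no read at 0 h or 3 h, at least 77.4-fold higher at 48 h. Without RLTR6-int_dup395 the change of the whole subfamily was 2.04. RLTR6-int_dup225, a piece of 260 bp on chromosome 5, had the highest signal at 0 h, and its 16.99, 19.4 and 23.7 scaled reads at 48 h overlapped the 21.1, 27.5 and 13.7 at 0 h (change −0.01, SE 0.29).

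**Figure D4:**
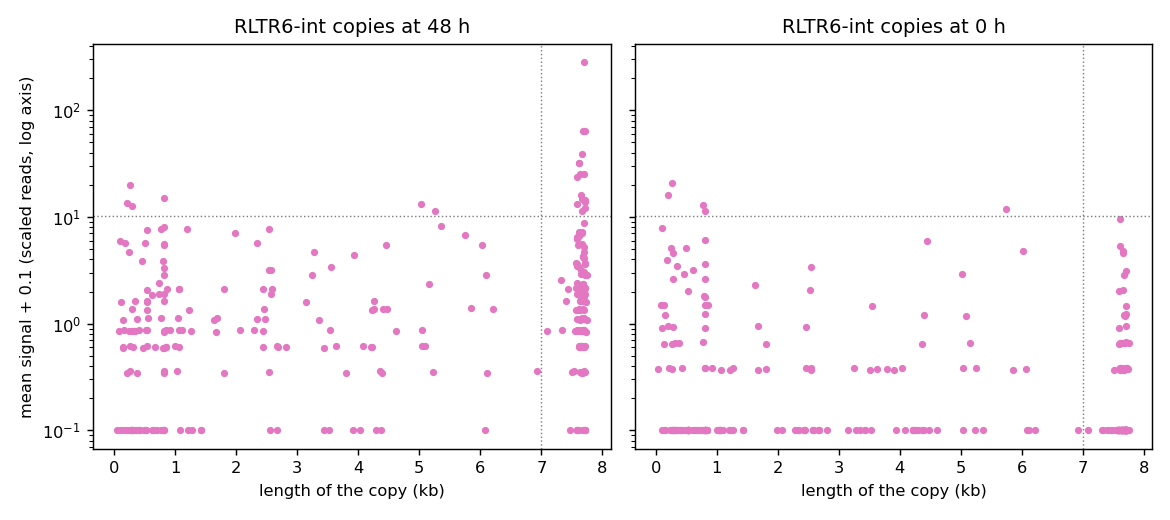
Mean scaled reads plus 0.1 (log axis) of the 303 RLTR6-int copies against the length of the copy in kb, at 48 h (left) and 0 h (right), with dotted lines at 7 kb and at 10 scaled reads. At 48 h 17 long copies lie at 10 or above, while at 0 h none does.

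Few RLTR6 LTRs had enough signal to be tested. Of 3 tested RLTR6B_Mm copies 0 were called at 48 h, where 26.0% of all tested repeat copies were called up. Of 6 tested RLTR6_Mm copies 2 were called up, both on chromosome X. These averaged 0 and 1.14 scaled reads at 0 h, and with the minimum at 0 h 0 of 3 RLTR6_Mm copies were called. The copies with the most signal at 0 h overlapped between the times: RLTR6B_Mm_dup515, in an intron of 9030624G23Rik, averaged 14.2 ± 5.98 scaled reads at 48 h and 16.1 ± 2.46 at 0 h (SD), and RLTR6_Mm_dup67, in an exon of the non-coding gene Gm20186, averaged 19.0 ± 11.9 at 48 h and 19.98 ± 4.47 at 0 h. Neither change passed (limma adjusted p = 0.783 and 0.631). Without the copies on chromosome X the change of RLTR6_Mm was 0.50, against 0.93 with them. Without copies inside genes on the same strand, the change of RLTR6B_Mm was 1.92, against 1.28 with them.

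RLTR1B-int had 91 tested copies, and 64 were called up and 5 down at 48 h, where 26.0% of all tested repeat copies were called up and 12.3% down. With the minimum at 0 h 29 of 52 were called up and 4 down, against 6.06% and 15.5% of all repeat copies that met it. RLTR1B-int_dup755 (chr18:9594516-9596774, plus strand), outside annotated genes, had the largest fitted change of the tested members on the log2(scaled reads + 1) scale. That order depends on the scale, since edgeR gave 10.49 for it and 12.51 for MuRRS4-int_dup675, which had no read at 0 h. It had 1637, 1990 and 1589 scaled reads in the 48 h libraries, against 1.63, 1.66 and 0 in the 0 h libraries. It was also among the earliest, with 52.7, 12.7 and 15.5 scaled reads at 3 h, all above 0 h (change 3.59, SE 0.45, limma adjusted p = 0.000252), and 443 ± 97.6 at 12 h (SD). Its change at 48 h was 9.82 (SE 0.45, limma adjusted p = 2.17e-10). The copy averaged 1.10 scaled reads at 0 h and met the minimum only through later libraries, so its calls are no support.

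RLTR1B-int_dup421 (chrX:32206296-32208503, plus strand) lies within the larger MuRRS4-int stretch of chromosome X. It had 180, 188 and 167 scaled reads at 48 h, against 0.813, 0 and 0.857 at 0 h. The ratio of 320 rests on 2 reads at 0 h, with an exact 95% counting interval of 88.4 to 2651. It too was called up at 3 h, with 6.08, 3.18 and 9.31 scaled reads (change 2.17, SE 0.32, limma adjusted p = 0.00107). With a mean of 0.557 scaled reads at 0 h it met the minimum only through later libraries, so this call is no support.

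The copy with the most signal of all, RLTR1B-int_dup350 (chr9:57477642-57480829, minus strand), was already transcribed at 0 h. It had 3712, 4084 and 3882 scaled reads at 48 h, against 2270, 2395 and 2272 at 0 h, a change of 0.75 (SE 0.14, limma adjusted p = 0.00032). Its neighbouring LTR, RLTR1B_dup435, had 372, 361 and 358 scaled reads at 48 h, against 215, 267 and 205 at 0 h, a change of 0.67 (SE 0.15). This internal copy alone held 18.9% of the RLTR1B-int signal at 48 h and 29.4% at 0 h, and without it the subfamily changed by 1.60.

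RLTR1B-int loci differ in their LTRs. The chain of 133 copies holds LTRIS2, that of 58 copies holds RLTR1B and that of 177 copies holds neither. With LTRIS2, 37 of 58 tested copies were called up and 5 down at 48 h. With RLTR1B, 18 of 22 were called up and 0 down, and with neither, 9 of 11 were called up and 0 down. With the minimum at 0 h 17 of 36 copies with LTRIS2 were called up and 4 down, 8 of 12 with RLTR1B were called up and 0 down, and 4 of 4 with neither were called up. Over all tested repeat copies 26.0% were called up and 12.3% down, and with the minimum at 0 h 6.06% and 15.5%. The 5 RLTR1B-int copies called down had LTRIS2, a difference that was not tested.

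RLTR1B, the LTR, had 31 tested copies, 22 called up and 1 down at 48 h, and with the minimum at 0 h 6 of 13 called up and 1 down. The shares over all repeat copies were 26.0% up and 12.3% down, and with the minimum at 0 h 6.06% and 15.5%. The copies that changed most, RLTR1B_dup709 (chr14:26111019-26111522, in an intron of Cphx3) and RLTR1B_dup711 (chr14:26250632-26251135, 6827 bp from Duxbl3), had the same read count in every library and cannot be told apart. Their values were 39.9, 38.7 and 35.2 scaled reads at 48 h with no read at 0 h, at least 45.5-fold higher. In all, 8 tested members fall into 4 sets with identical reads in every library. Counting each set once left every call count within 1.5 times its value.

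The single LTR called down was RLTR1B_dup244, in an intron of Mrpl33 on the same strand. It had 106, 111 and 125 scaled reads at 48 h, against 146, 157 and 169 at 0 h, a change of −0.47 (SE 0.13, limma adjusted p = 0.0079). After rescaling over genes the change was −0.12 and was not called (adjusted p = 0.487).

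RLTR4 is the LTR group of the endogenous MuLV-type proviruses. RLTR4_MM-int had 24 tested copies, 12 called up and 1 down at 48 h, where 26.0% of all tested repeat copies were called up and 12.3% down. With the minimum at 0 h 4 of 11 were called up and 1 down, against 6.06% and 15.5% of all repeat copies that met it. RLTR4_MM-int_dup202 (chr8:43312303-43319890, minus strand, 7588 bp) had 494, 404 and 413 scaled reads at 48 h, against 1.63, 8.32 and 6.0 at 0 h. It had 29.0, 19.1 and 38.8 scaled reads at 3 h. The changes at 3 h (2.38, SE 0.38, limma adjusted p = 0.00182) and at 48 h (6.30, SE 0.38, adjusted p = 3.14e-09) were both called. The copy averaged 5.3 scaled reads at 0 h and met the minimum only through later libraries, so these calls are no support. The pieces of its LTR, RLTR4_Mm_dup101 and RLTR4_Mm_dup102, averaged 32.7 ± 2.08 and 19.7 ± 10.9 scaled reads at 48 h (SD) with no read at 0 h, at least 39.1-fold and 23.7-fold higher. The nearest protein-coding gene, Zfp42 (Rex1, a zinc finger gene used as a marker of the pluripotent state), starts 5323 bp away. Zfp42 averaged 2898 ± 77.9 scaled reads at 48 h and 1602 ± 72.1 at 0 h (SD), a change of 0.86 (SE 0.12, limma adjusted p = 6.24e-11). It was looked at because of its position.

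RLTR4_MM-int_dup290 (chr11:6750119-6757694, minus strand) had 69.4, 39.5 and 75.7 scaled reads at 48 h, against 0, 0.832 and 0 at 0 h. The ratio of 222 rests on 1 read at 0 h, with an exact 95% counting interval of 39.5 to 8808. RLTR4_MM-int_dup328 on chromosome 13, 1004 bp from the histone gene Hist1h4m, had the most signal at 0 h. It had 171, 73.6 and 90.2 scaled reads at 48 h, against 169, 198 and 193 at 0 h. The groups overlapped, and the fall of −0.83 (SE 0.26, limma adjusted p = 0.0186) was lost when 4 of the libraries were left out in turn (adjusted p up to 0.103) and after rescaling (−0.48, adjusted p = 0.153). Its LTR, RLTR4_Mm_dup195, had 191, 250 and 196 scaled reads at 48 h, against 149, 130 and 153 at 0 h, a call at 0.55 (SE 0.17, adjusted p = 0.0201) that was lost in 2 of the 15 fits without a library (adjusted p up to 0.0994).

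**Figure D5:**
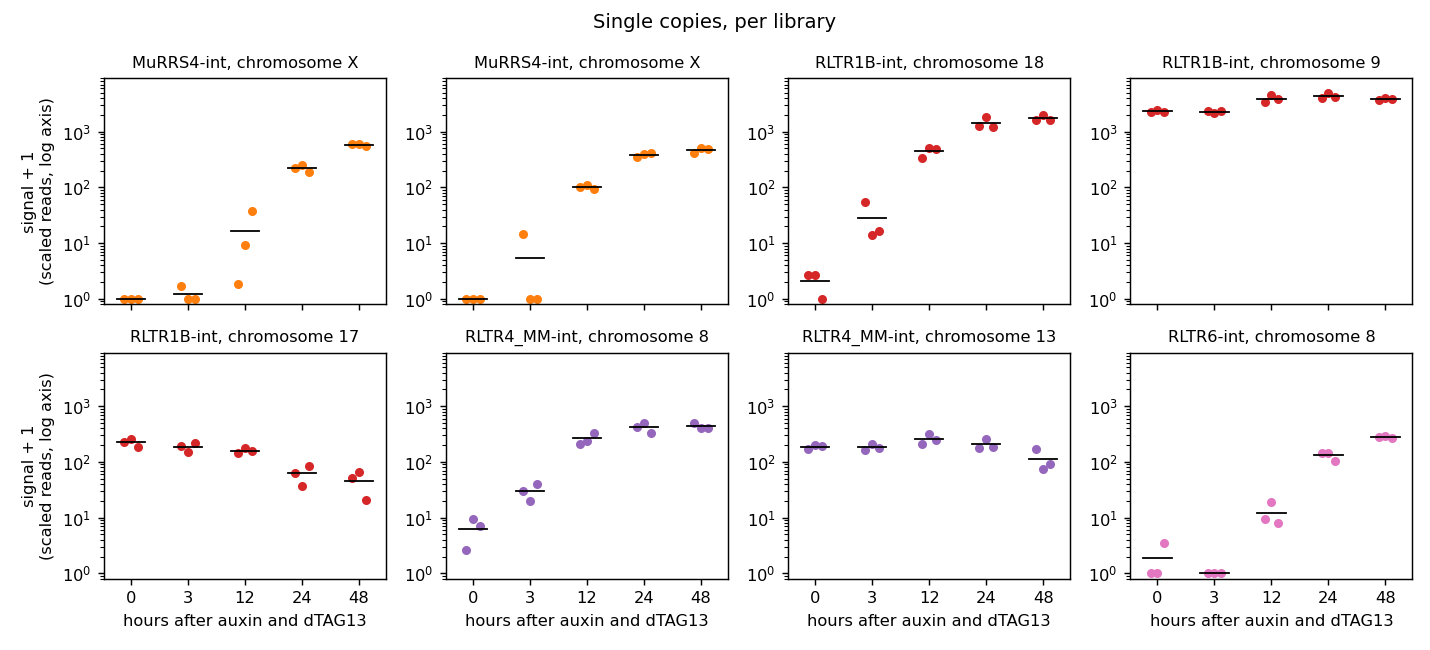
Scaled reads plus 1 (log axis) of 8 copies by hours after auxin and dTAG13, with points for libraries and bars for means of 3. The upper row shows MuRRS4-int_dup675, MuRRS4-int_dup671, RLTR1B-int_dup755 and RLTR1B-int_dup350, the lower row RLTR1B-int_dup693, RLTR4_MM-int_dup202, RLTR4_MM-int_dup328 and RLTR6-int_dup395. RLTR1B-int_dup755 and RLTR4_MM-int_dup202 lie above 0 h already at 3 h, MuRRS4-int_dup675 and RLTR6-int_dup395 do so from 12 h, and RLTR1B-int_dup693 averages 44.8 at 48 h, against 224 at 0 h.

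Copies with nearly the same sequence over a short stretch had different values at different places. The stretch, from the internal part, is shown for 3 RLTR4_MM-int copies that have it under a RefSeq promoter window. Positions that differ among them are in capitals.
RLTR4_MM-int_dup178, chr7:29619286-29619483, plus strand: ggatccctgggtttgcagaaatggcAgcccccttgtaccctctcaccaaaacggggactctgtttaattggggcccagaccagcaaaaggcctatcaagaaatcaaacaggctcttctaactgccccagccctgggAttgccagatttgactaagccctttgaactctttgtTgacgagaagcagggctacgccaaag
RLTR4_MM-int_dup187, chr7:64130684-64130881, plus strand: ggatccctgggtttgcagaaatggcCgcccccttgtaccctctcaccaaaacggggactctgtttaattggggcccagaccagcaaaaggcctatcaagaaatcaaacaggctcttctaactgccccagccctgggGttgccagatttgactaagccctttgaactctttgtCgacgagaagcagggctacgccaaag
RLTR4_MM-int_dup429, chr19:38379101-38379298, plus strand: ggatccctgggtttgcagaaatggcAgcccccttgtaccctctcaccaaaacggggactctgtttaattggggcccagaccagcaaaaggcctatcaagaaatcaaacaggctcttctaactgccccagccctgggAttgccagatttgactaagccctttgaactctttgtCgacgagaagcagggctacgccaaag
Over 299 aligned bases the 3 copies differed at 3 positions. RLTR4_MM-int_dup178 averaged 20.8 scaled reads at 48 h and 0.840 at 0 h. It was called up but met the minimum only through later libraries. RLTR4_MM-int_dup187 averaged 4.26 at 48 h and 3.29 at 0 h, and RLTR4_MM-int_dup429 averaged 0 at 48 h and 0.555 at 0 h. Reads from such stretches may be placed on any of these copies.

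The earliest calls, at 3 h, were made in 5 copies that rose and 4 that fell, but with only the 2 times in a fit 0 were called in either direction. The copies that rose were RLTR1B-int_dup755, RLTR4_MM-int_dup202, MuRRS4-int_dup479, RLTR1B-int_dup421 and RLTR1B-int_dup567. These 5 averaged at most 5.3 scaled reads at 0 h and met the minimum only through later libraries, so their calls are no support. MuRRS4-int_dup479 (chrX:5307027-5310456, minus strand) had 13.5, 7.0 and 0.775 scaled reads at 3 h, against 0, 0 and 0.857 at 0 h, and these overlap. RLTR1B-int_dup567 (chr13:4569026-4571818, plus strand) had 20.3, 11.5 and 11.6 at 3 h, all above the 5.69, 1.66 and 6.0 at 0 h. The copies called down at 3 h were RLTR1B-int_dup551, RLTR1B-int_dup555, RLTR1B-int_dup656 and RLTR4_Mm_dup56. RLTR1B-int_dup555 had 97.9, 120 and 127 scaled reads at 3 h, against 215, 213 and 181 at 0 h, but 202, 229 and 209 at 48 h, so its level at 48 h overlapped that at 0 h.

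Of the 199 tested copies 8 were called down at 48 h, where 12.3% of all tested repeat copies were called down. RLTR1B-int made up 5 of these 8 copies and 91 of the 199 tested copies. RLTR1B-int_dup693 (chr17:6576741-6579413, minus strand), in an intron of the pseudogene Gm29721, had 49.5, 65.1 and 19.9 scaled reads at 48 h, against 230, 260 and 181 at 0 h, a change of −2.43 (SE 0.36, limma adjusted p = 5.25e-05). RLTR1B-int_dup785 and RLTR1B-int_dup782, short pieces opposite an intron of the ion channel gene Trpm3, changed by −2.02 and −0.97, and for RLTR1B-int_dup782 the libraries of both times overlapped. RLTR1B-int_dup656, opposite an intron of Rims2, a gene of synaptic vesicle release, changed by −0.92. RLTR1B-int_dup551, MuRRS-int_dup98 (−0.87), RLTR4_MM-int_dup328 and RLTR1B_dup244 complete the list.

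RLTR1B-int copies hold exons of annotated non-coding RNAs of the Platr group, named for pluripotency-associated transcripts. In a pair of them, picked after values were seen, 1 copy had lower signal at 48 h than at 0 h and the other had higher signal. The whole of exon 3 of Platr13 and the first 182 of 484 bases of exon 3 of Platr15 are shown from GENCODE vM21 transcripts, with bases that differ in capitals.
RLTR1B-int_dup551, exon of Platr13, chr11:41220913-41221096, plus strand: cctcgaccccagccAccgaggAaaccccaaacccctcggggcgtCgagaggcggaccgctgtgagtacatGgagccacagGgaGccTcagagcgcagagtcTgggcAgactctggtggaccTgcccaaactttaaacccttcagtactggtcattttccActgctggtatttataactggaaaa
RLTR1B-int_dup83, exon of Platr15, chr2:150704838-150705019, minus strand: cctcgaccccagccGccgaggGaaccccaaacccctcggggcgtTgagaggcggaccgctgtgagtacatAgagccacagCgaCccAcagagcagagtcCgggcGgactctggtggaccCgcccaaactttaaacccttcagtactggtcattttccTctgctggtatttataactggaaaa
Both exons start 106 bases into the copy, and 171 of 182 aligned bases were identical (94.0%), with 1 gap. RLTR1B-int_dup551 had 86.4, 150 and 128 scaled reads at 48 h, against 355, 332 and 302 at 0 h, a change of −1.46 (SE 0.20, limma adjusted p = 2.05e-05). RLTR1B-int_dup83 had 113, 126 and 139 scaled reads at 48 h, against 0.813, 10.8 and 16.3 at 0 h, a change of 4.14 (SE 0.75, adjusted p = 0.00032). With a mean of 9.3 scaled reads at 0 h, RLTR1B-int_dup83 met the minimum only through later libraries, so its call is no support. In each case the groups were apart, and the level of the copy that rose reached that of the copy that fell.

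Most tested members lie outside genes, but less often than all 1842 members, of which 75.1% overlap no GENCODE gene. Of the 199 tested copies 131 (65.8%) overlap no GENCODE gene, 13 overlap an exon on the same strand, 24 only an intron on the same strand and 31 only a gene on the opposite strand. Reads of a host gene can be counted on a copy inside it. RLTR1B-int_dup759, overlapping an exon of the deubiquitinase gene Usp14 on chromosome 18, had 1037, 1250 and 1173 scaled reads at 48 h, against 72.4, 72.4 and 97.7 at 0 h. MuRRS-int_dup951, overlapping an exon of the SUMO protease gene Senp7, had 96.7, 150 and 139 at 48 h, against 4.88, 14.1 and 13.7 at 0 h. It held 29.7% of the MuRRS-int signal at 48 h, and without it the subfamily changed by 1.38. MuRRS-int_dup82 on chromosome 4, the highest MuRRS-int copy at 0 h, averaged 48.7 ± 6.86 scaled reads at 48 h and 19.7 ± 5.99 at 0 h (SD), a change of 1.3 (SE 0.34, limma adjusted p = 0.00698).

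Other retroviruses lie near some members. Within 5 kb of a copy of ETn, MusD or RLTR9, of IAP, or of MMERVK10C or RLTR10 were 29 of the 199 tested copies, and 23 of those 29 averaged under 10 scaled reads at 0 h. Likewise 33 of the 37 tested copies on chromosome X averaged under 10 at 0 h, against 66 of the 162 elsewhere, so calls at 48 h are given with the minimum at 0 h. Then 6 copies were near such neighbours and 6 were called up, and of the other 96 copies 37 were called up and 7 down with a median change of 0.60. On chromosome X 3 of 4 copies were called up and 0 down, and elsewhere 40 of 98 were called up and 7 down with a median of 0.62. Of all repeat copies that met this minimum 6.06% were called up and 15.5% down. The part of such neighbours in the reads of a member was not tested.

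For scale, MMERVK10C-int, an ERVK retrovirus, rose by 5.76 and IAPEz-int by 4.06 at 48 h. MMVL30-int, the internal part named after VL30, averaged 1295 ± 95.6 scaled reads at 48 h and 495 ± 33.2 at 0 h (SD), a change of 1.38 (SE 0.13). MuLV-int averaged 437 ± 39.95 at 48 h and 311 ± 34.4 at 0 h (SD), a change of 0.49 (SE 0.14). Among 764 repeat names outside the set, those nearest to RLTR1B-int by the distance over the 4 fitted changes were RLTR31A_Mm (0.14), MMVL30-int (0.17), MMERVK9E_I-int (0.21), RLTR9E (0.23) and LTRIS_Mm (0.23). These changes come from the same libraries and share the 0 h group.

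The authors' deposited table holds a call for each copy. That table, the authors' deposited one, called 11, 107, 150 and 172 of the 1842 members up at 3, 12, 24 and 48 h, or 9.34% at 48 h. Over all 319797 copies the authors' deposited table called 0.131%, 0.948%, 1.81% and 2.48% up. At 48 h 108 of the tested members were called up both there and by limma, 64 members called up in the authors' deposited table were below the minimum used here, and 4 members were called down, where 0.33% of all copies were.

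The genes that act on such proviruses were given as lists chosen with earlier results of these data known. Of the methyltransferase genes in the genotype label, Setdb1 averaged 732 ± 46.3 scaled reads at 48 h and 846 ± 24.9 at 0 h (SD), a change of −0.21 (SE 0.13) that did not pass (limma adjusted p = 0.129) but was called with only the 2 times in a fit (adjusted p = 0.0065). Suv39h1 averaged 455 ± 23.4 at 48 h and 483 ± 36.3 at 0 h (change −0.09, not called). The label gives the line as Suv39h2-/-, so reads on Suv39h2 are not taken as those of an intact gene. Suv39h2 averaged 803 ± 69.4 at 48 h and 1091 ± 72.9 at 0 h (change −0.44, SE 0.13, limma adjusted p = 0.00112). Nascent RNA gives no protein level, and the labels do not name the tagged proteins. Of 29 tested genes for silencing by H3K9 methylation and KRAB zinc fingers, 20 were called down and 0 up at 48 h, with a median of −0.34, and edgeR also called 0 up. Over all 15261 genes 58.4% were called down and 7.65% up, with a median of −0.37. Called down were Ehmt2, an H3K9 methyltransferase (−0.71), Trim28, the KRAB co-repressor (−0.66), Cbx1, which encodes the H3K9me3 reader HP1β (−0.64), and Pa2g4 (−0.63). Zfp809 changed by −0.08 and was not called. After rescaling over genes 8 of the 29 were called up and 8 down, with Setdb1 at 0.14 and Suv39h1 at 0.26 called up, and Suv39h2 at −0.09 not called.

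All 8 genes of DNA methylation were called down at 48 h, with a median of −0.47, where 58.4% of all genes were called down with a median of −0.37. The hydroxylase genes Tet2 and Tet1 changed by −1.44 and −0.86, and Uhrf1 and Dnmt1, which maintain methylation, by −0.55 and −0.49. After rescaling 5 of the 8 were called down. Of 4 entry receptor genes 3 were called down, where 58.4% of all genes were, with a median of −0.53: Slc20a1 (−0.89) and Slc20a2 (−0.51), phosphate transporters used by gibbon ape leukaemia and amphotropic viruses, and Slc7a1 (−0.54), the receptor of ecotropic MuLV. Xpr1, the receptor of xenotropic and polytropic MuLV, changed by −0.13 and was not called, and by 0.22 after rescaling. Of 12 restriction and sensing genes 7 were called down and 1 up, with a median of −0.48, near the shares over all genes (58.4% down and 7.65% up), and 3 were called up after rescaling. Mavs, an adaptor of RNA sensing, changed by −0.89, Apobec3, a cytidine deaminase that restricts retroviruses, by −0.76 and Rnaseh2a by −0.73. The gene called up was Fv1, a restriction factor that acts on the MuLV capsid. It had 94.5, 104 and 118 scaled reads at 48 h, against 52.8, 58.2 and 59.2 at 0 h, a change of 0.88 (SE 0.16, limma adjusted p = 3.88e-07), and 1.22 after rescaling.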

How the data were processed

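TT-seq signal of 15 mouse libraries was used as deposited. The submitters' processing notes name STAR 2.5.2a, DESeq2, deepTools and the build mm10 (GRCm38). The deposited signal is the authors' read number on each unit after division by the size factor of the library. A yeast spike-in was meant to adjust between times per the labels, but the file does not show what the factors rest on. In each library 99.9969% to 99.9991% of values above 0 came out as whole reads (tolerance 0.05), so reads could be recovered. For the counter, its strand setting and reads with several positions, details were not given in the sources used here. Up and down calls of the authors' deposited table were taken as given.

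Scaled reads of 13519 copies, 774 repeat names (sums over copies) and 15261 genes with a mean of at least 10 were tested as log2(value + 1) with limma 3.58.1 (R 4.3.3, intensity trend) in a joint fit of the 15 libraries, contrasting later times with 0 h, because the values are scaled and not counts. Calls are Benjamini-Hochberg adjusted p under 0.05 within each class. Ratios of subfamilies were tested the same way within libraries. edgeR 4.0.16 on the recovered reads was an alternative and called 127 member copies up and 8 down at 48 h. The fits were also run on simulated reads with a fixed spread, changes at 48 h only and no shift of whole libraries. That run does not cover such shifts or copies without reads at 0 h. Interval starts, counted from 0 in the file, were raised by 1. Genes are from GENCODE vM21, and sequences from RefSeq GRCm38.p6 or GENCODE. Columns without a sample numbered 0.

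Members and lists were chosen with earlier results of these data known. Named copies were, in each subfamily with at least 10 tested copies, the 2 largest called rises and the largest called fall at 48 h without overlap, then the highest copy at 0 h and the 3 largest rises at 3 and 12 h. The gene lists gave up to 4 genes by adjusted p. Copies in exons, those called at 3 h, all falls, Zfp42, the 7 kb limit and the copies shown by sequence were chosen after values were seen. The change from 24 to 48 h, the sums without chromosome X, without the highest copy or without copies inside genes, the differences between such sums, and the counts with 1 copy of each identical set or without copies inside genes were added after seeing the data. The position of RLTR6-int_dup395 and its annotation are not reported here.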

Additional observations from a re-analysis of the deposited data

How the results depend on the processing

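At 48 h no alternative changed the direction or the call of any of the 10 subfamilies, or, among those that kept all copies, of the 13 differences between subfamilies, for which edgeR and rescaling were not run. Of those differences, without chromosome X MuRRS4-int over RLTR1B-int was −0.58 and over MuRRS-int −0.89. Over RLTR1B-int and without the highest copies, MuRRS-int was −0.22, RLTR4_MM-int −0.35 and RLTR6B_Mm −0.47. Without copies inside genes, MuRRS-int was 0.14, RLTR1B −0.09, RLTR6B_Mm 0.58, RLTR6C_Mm 0.36 and RLTR6_Mm −0.24. At 3 h rescaling over genes gave 0.19 for RLTR1B, 0.058 for RLTR1B-int, 0.155 for RLTR4_MM-int, 0.029 for RLTR6-int, 0.14 for RLTR6B_Mm and 0.215 for RLTR6_Mm, all below 0 in the reported fit, with 3 subfamilies called up. MuRRS4-int at 3 h was −0.044 without chromosome X, and without copies inside genes RLTR1B was 0.042 and RLTR6B_Mm 0.001. Leaving out single libraries gave ranges at 3 h of −0.018 to 0.27 for MuRRS4-int, −0.092 to 0.025 for RLTR1B, −0.20 to 0.011 for RLTR6B_Mm and −0.11 to 0.10 for RLTR6_Mm. The 12 h call of RLTR6_Mm was lost without 0 h replicate 1 (0.41, adjusted p = 0.0647) or 12 h replicate 2 (0.37, adjusted p = 0.0823), and the 24 h call of RLTR6C_Mm without 24 h replicate 2 (0.74, adjusted p = 0.0571). From 24 to 48 h, 1 subfamily was called up without the intensity trend, in place of 2.

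Copies called up at 3 h numbered 0 with the minimum at 0 h, 9 after rescaling, 0 with only the 2 times in a fit and 4 to 8 with a library left out. Copies called down at 3 h numbered 2 with a pseudocount of 5, 1 with the minimum at 0 h, 1 by edgeR, 2 after rescaling, 0 with only the 2 times, 1 without the trend, 2 without copies inside genes and 0 to 4 with a library left out. With the minimum at 0 h 32, 35 and 43 copies were called up at 12, 24 and 48 h. Without any minimum 194 and 268 were called up at 24 and 48 h, and 7 down at 24 h. After rescaling 1 was called down at 12 h and 4 at 48 h, without copies inside genes 2 at 24 h and 5 at 48 h, and 5 to 9 at 48 h with a library left out.

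After rescaling 8 silencing genes were called up and 8 down, 5 DNA methylation genes down, 1 receptor gene up and 3 restriction genes up. Restriction genes called up numbered 2 with a pseudocount of 5, with only the 2 times or without the trend, and 1 to 2 with a library left out. Rescaling turned Setdb1 to 0.14, Suv39h1 to 0.26, Xpr1 to 0.22, RLTR6-int_dup225 to 0.32, RLTR6B_Mm_dup515 to 0.074 and RLTR6_Mm_dup67 to 0.041. With a library left out these copies ranged from −0.27 to 0.21, −0.51 to 0.11 and −0.71 to 0.34. The fall of RLTR1B_dup244 was also lost without a minimum (adjusted p = 0.074), that of RLTR4_MM-int_dup328 with only the 2 times (0.0664), and the rise of RLTR4_Mm_dup195 without the trend (0.051). The cause was not tested.

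Over copies, the deviations of libraries with the same replicate number were hardly correlated (median of 0.03 over 30 pairs, 4 of them over 0.1). A shift shared by a whole library cannot show in this correlation. In the rescaling over genes, replicate 2 had the smallest factor at 0, 12, 24 and 48 h (0.883, 0.732, 0.845 and 1.16). At 3 h it had the largest (1.19). The numbers were not taken as pairs in the reported fit, and a replicate block was fitted as an alternative. With a replicate block 2 copies were called down at 3 h and 2 restriction genes up at 48 h, and no other count of calls moved by over 1.5 times.

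Limits: 1 cell line, 3 libraries per time, and copies that can be near-identical, whose reads cannot then be told apart with certainty. Signal per copy is not corrected for how much of it can be uniquely mapped. Sequence was available only for copies under a promoter window or in a transcript. Intervals and floors cover counting error only.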
